A study of Mus musculus with 35 samples.

Results

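The 8 genes described here make, sense or remove cholesterol: Hmgcs1, Idi1, Sqle and Cyp51 encode enzymes of its synthesis, Srebf2 encodes a transcription factor that controls synthesis, Abca1 encodes a transporter that exports it, and Cyp46a1 and Ch25h encode hydroxylases that turn it into oxysterols. They were chosen by symbol, as 8 of the 32544 genes in the count tables, and all 8 were found. The brain makes its own cholesterol, since lipoproteins of the blood hardly cross the blood-brain barrier. When sterols in the endoplasmic reticulum are low, SREBP2, the product of Srebf2, is cut and moves to the nucleus, where it raises transcription of the synthesis enzymes. Oxysterols act the other way: they hold SREBP2 back and activate LXR receptors, which raise Abca1, and 24S-hydroxycholesterol, the product of Cyp46a1 in neurons, is the main form in which cholesterol leaves the brain.

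Hippocampal RNA was sequenced from adult male C57BL/6JOlaHsd mice that had received kainic acid (KA), a glutamate receptor agonist, or PBS into the amygdala. Intra-amygdala KA (IAKA) triggers status epilepticus, and tissue was taken 24 h later, in the acute phase, or at 2 weeks, when the mice of this model have spontaneous seizures. A cannula was implanted beforehand, and lorazepam followed KA to limit the seizures. Input libraries were made from 50 ng of total RNA of single mice, and m6A libraries from 10 ng of the RNA that an antibody against m6A (N6-methyladenosine, an RNA base modification) pulled down from 5 µg of total RNA, which the labels call polyA RNA. At 24 h, 5 m6A and 4 input libraries were of IAKA mice and 3 of each assay of PBS mice. At 2 weeks, 6 of each assay were of IAKA mice, with 5 m6A and 3 input libraries of PBS mice. The level of a gene in an m6A library depends on how much of its RNA there is as well as on how much of that RNA carries m6A. The whole hippocampus was extracted, and a smaller number of cells of a type cannot be told apart from less RNA per cell.

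Of the 16 input libraries, 13 held at least 100000 counts (3057578 to 12694434) and were used, which left 3 IAKA mice and 1 PBS mouse at 24 h. The 19 m6A libraries held 1652933 to 34564536 counts. The prefixes of the data columns divide the libraries into sets, here called library sets 1 and 2 for input and 3, 4 and 5 for m6A, and sets and treatment overlap in part: all 6 m6A libraries of set 3 are from IAKA mice. IAKA mouse 8 at 24 h stood apart in both assays, with a sum of 6 astrocyte markers of 996 CPM in its m6A library against 1970 to 7060 CPM in the other groups, and with the most genes detected of any m6A library (28496, next 27003). The Ch25h and Idi1 results in m6A libraries at 24 h are given with and without it. The 6 excitatory neuron markers were detected in all groups, and choroid plexus markers summed to 28.3 to 2340 CPM, the counts of a library scaled to a common total.

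The promoters of 3 of the genes are shown for the letters they hold. Hmgcs1, a synthesis gene, and Srebf2 itself hold letters of the sterol regulatory element (SRE) bound by SREBP2. Ch25h holds the letters of a cyclic AMP response element (CRE), whose part in its control was not tested. Letters tied to interferon were not searched. The sequences are from RefSeq (GRCm38.p6, the assembly also named mm10) and run from 250 bases before to 50 bases after the start site, 5′ to 3′ on the strand of the gene. Capitals mark matches to TCACNCCAC with at most 1 mismatch in Hmgcs1 (chr13:119690101-119690400, plus strand) and Srebf2 (chr15:82147019-82147318, plus strand) and the letters TGACGTCA in Ch25h (chr19:34475099-34475398, minus strand).
Hmgcs1: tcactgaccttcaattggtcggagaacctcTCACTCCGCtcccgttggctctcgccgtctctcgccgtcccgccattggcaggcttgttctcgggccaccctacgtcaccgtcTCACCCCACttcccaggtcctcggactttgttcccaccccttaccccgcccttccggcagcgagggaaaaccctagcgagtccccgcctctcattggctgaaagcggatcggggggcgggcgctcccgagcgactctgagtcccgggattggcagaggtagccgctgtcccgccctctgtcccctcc
Srebf2: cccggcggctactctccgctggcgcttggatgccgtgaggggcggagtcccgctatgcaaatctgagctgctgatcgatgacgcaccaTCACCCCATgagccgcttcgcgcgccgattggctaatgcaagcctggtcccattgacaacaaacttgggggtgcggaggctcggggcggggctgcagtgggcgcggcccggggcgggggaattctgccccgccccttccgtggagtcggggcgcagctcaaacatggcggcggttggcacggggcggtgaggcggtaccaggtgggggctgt
Ch25h: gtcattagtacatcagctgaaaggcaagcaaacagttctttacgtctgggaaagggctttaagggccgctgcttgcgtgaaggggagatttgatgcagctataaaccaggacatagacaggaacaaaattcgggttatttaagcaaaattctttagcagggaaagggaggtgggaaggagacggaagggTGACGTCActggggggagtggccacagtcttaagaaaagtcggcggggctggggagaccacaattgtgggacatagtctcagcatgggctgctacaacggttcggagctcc

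Promoters were found for 7 of the 8 genes, that of Sqle not being in the table. Both strands were searched. TCACNCCAC without a mismatch stood in the Hmgcs1 promoter, at position -137 from the start site, and in 1.24% of all 32851 mouse promoters of this length. With 1 mismatch allowed, the promoters of Hmgcs1, Cyp51 and Srebf2 held it (3 of 7), against 24.22% of all promoters. CCAAT, the letters bound by NF-Y, a partner of SREBP2, stood in 5 of 7 (Hmgcs1, Idi1, Cyp51, Srebf2 and Cyp46a1), against 37.41% of all. GGGCGG, the GC box bound by Sp1, stood in 6 of 7, with Ch25h as the exception, against 35.66% of all. TGACGTCA stood in the Ch25h promoter, at position -61, and in 1.79% of all promoters, whereas TGANTCA, the letters bound by AP-1, stood in none of the 7 and in 7.81% of all. No binding was measured, and these matches are letters only.

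Among control mice the 8 genes differed widely in level. In input libraries of PBS mice at 2 weeks (n = 3), with CPM divided by the length of the canonical transcript in kb, Hmgcs1, whose enzyme joins acetyl-CoA to acetoacetyl-CoA early in the pathway, was highest at 32.4 ± 2.15 CPM per kb (SD). Idi1 (17.5 ± 2.33), Cyp46a1 (13.6 ± 1.75), Sqle (10.6 ± 1.02), Srebf2 (9.21 ± 1.54), Cyp51 (6.56 ± 0.365) and Abca1 (3.97 ± 1.22) followed in CPM per kb. Ch25h was lowest, at 0.274 ± 0.127 CPM per kb, from 1, 2 and 2 counts. The 3 mice overlapped in range between Idi1 and Cyp46a1 and between Sqle and Srebf2, and the other neighbours in this order did not overlap or met only at the end of their ranges. None of the 7 genes that passed the filter on low counts passed the test of m6A against input libraries in PBS mice at 2 weeks (edgeR's quasi-likelihood test with Benjamini-Hochberg adjustment, as in all tests that follow), against 1.12% of all genes tested, and none did at an unadjusted p under 0.05, against 16.9% of all genes, or with DESeq2. DESeq2 called 738 of 15128 genes. Limma voom called 0 of the 7, against 1184 of 15128 genes. It put 1 of the 7, Sqle, under an unadjusted p of 0.05, as it did 3978 of 15128 genes. The log2 difference of m6A over input ran from -0.40 for Sqle to 0.06 for Abca1, with -0.32 for Hmgcs1 and -0.33 for Idi1. Mice 50 and 78 had no input library in this fit. The assays also differ in library set and in the RNA class the labels name, which cannot be told apart from m6A. In the 3 mice with both libraries, the log2 ratio of CPM was 0.16 to 0.21 for Hmgcs1 and 0.13 to 0.61 for Idi1. For Sqle it was -0.85 to 0.19. GGAC, the core of the favoured m6A motif, stood at 0 sites per kb in the canonical transcript of Idi1 and at 6.06 per kb in that of Sqle, against a median of 4.07 over all genes.

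**Figure D1:**
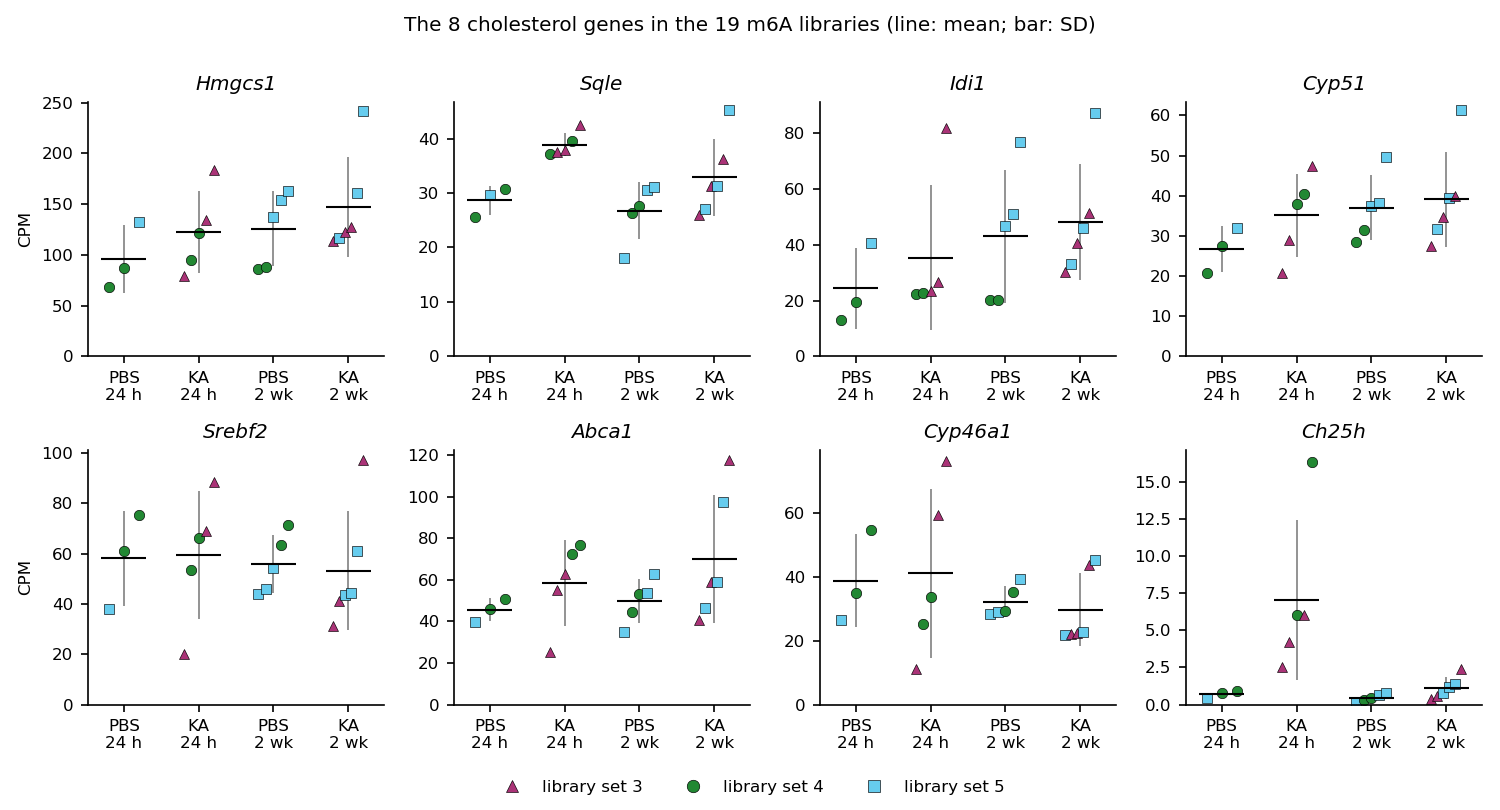
Level of each of the 8 genes in the 19 m6A libraries, in CPM on the vertical axis, with 1 symbol per mouse (KA stands for IAKA) shaped by library set, the mean as a line and the SD as a bar. Ch25h in the 5 IAKA libraries at 24 h (2.52 to 16.35 CPM) lies above all other groups, and Sqle at 24 h separates IAKA (37.2 to 42.43) from PBS (25.68 to 30.65).

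Ch25h showed the widest difference of the 8 genes. Its product adds a hydroxyl group to carbon 25 of cholesterol, and interferon and microbial signals are known to raise it in macrophages and microglia. The 5 IAKA mice at 24 h had in their m6A libraries 6.06 (mouse 67), 4.24 (mouse 98), 6.02 (mouse 97), 16.35 (mouse 79) and 2.52 CPM (mouse 8), and the 3 PBS mice had 0.896, 0.787 and 0.443 CPM. The lowest IAKA value was thus above the highest PBS value, and the ratio of the group means was 9.93. These values rest on 7 to 523 counts per IAKA library and 6 to 25 per PBS library. The log2 fold change was 3.25 (SE 0.622) and the p-value ranked 37 of 16470 genes, but edgeR's adjusted p of 0.157 did not pass the threshold of 0.05. Ch25h passed the filter on low counts through its IAKA libraries, and failed that filter in a fit of PBS m6A libraries alone.

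In that comparison 0 of the 8 genes passed in edgeR, where 0.00607% of all genes did (1 gene, Tm4sf1), and 1 of the 8 (Ch25h) was under an unadjusted p of 0.05, against 5.31% of all genes. DESeq2 called 1 of the 8, Ch25h, with an adjusted p of 9.52e-05, against 0.947% of all genes. Limma voom also called 1 of the 8, Ch25h, with an adjusted p of 0.001, against 6.8% of all genes, and put 5 of the 8 (Hmgcs1, Sqle, Cyp51, Abca1 and Ch25h) under an unadjusted p of 0.05, against 22.1% of all genes. Every IAKA library was above every PBS library for 2 of the 8 genes, Ch25h and Sqle, against 2.62% of all genes tested. Without IAKA mouse 8, the mouse that stood apart, the log2 fold change of Ch25h was 3.48 and its adjusted p 0.0351. Within library set 4, the set that holds both treatments (IAKA mice 79 and 97, PBS mice 71 and 73), it was 3.62 with an adjusted p of 0.0369, whereas with library set as a block it was 3.60 with an adjusted p of 0.352. The adjusted p ranged from 9.52e-05 to 0.352 over the other settings and from 0.0351 to 0.9 with 1 library left out at a time, and the log2 fold change from 2.63 to 3.62 in all of them.

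The values of Ch25h in m6A libraries lay closer together at 2 weeks. The 6 IAKA mice had 0.392 to 2.43 CPM (median 0.989), and the 5 PBS mice 0.451, 0.292, 0.792, 0.611 and 0.152 CPM. The groups overlapped, although the highest 3 IAKA mice (42, 7 and 9) were above all PBS mice. The log2 fold change was 1.28 (SE 0.515, adjusted p = 0.875 in edgeR), 1.06 within library set 5 and 0.63 with limma voom. Without mouse 42, or without mouse 21, the gene failed the filter on low counts. The change of the IAKA effect from 24 h to 2 weeks, tested as an interaction over the 19 m6A libraries, was -1.96 (SE 0.797, adjusted p = 1 in edgeR). None of the 8 genes passed in that test, against 0.00573% of all genes, and Ch25h alone had an unadjusted p under 0.05 in edgeR (2.45% of all genes did). The same held for Ch25h in DESeq2, which called none of the 8 and 5 of 17440 genes. Without IAKA mouse 79 the interaction was -1.33.

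In input libraries Ch25h was close to the limit of detection. The fold changes of the input comparison at 24 h rest on 1 PBS library and depend on the scaling and on IAKA mouse 8. The median over all genes was 0.27 on the log2 scale with TMM, as used here, and -0.04 with library size. Without IAKA mouse 8 that median was 0.03 with TMM. At 24 h the 3 IAKA mice had 1.64, 1.79 and 2.22 CPM and the 1 PBS mouse 0.788 CPM. The log2 fold change of 1.56 (1.24 with library size) had a standard error of 1.198 and an adjusted p of 0.734 in edgeR. At 2 weeks the IAKA mice had 0.126 to 1.25 CPM and the PBS mice 0.222, 0.570 and 0.350 CPM, and the gene failed the filter on low counts. The log2 ratio of m6A over input in the same mouse was 0.18, 1.24 and 1.89 in the IAKA mice at 24 h and -0.83 in the PBS mouse. These ratios rest on 34, 7, 12 and 6 counts in m6A and 22, 7, 9 and 10 counts in input libraries. The difference of the IAKA effect between the assays at 24 h was 1.82 (SE 1.106, adjusted p = 1 in edgeR), so that more total RNA and a larger m6A-bound share cannot be told apart here.

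Markers of other cells were read beside Ch25h. The summed level of 8 microglia markers in m6A libraries at 24 h was 142 to 411 CPM in IAKA and 205 to 258 CPM in PBS mice, with the highest sum in mouse 79, which also had the highest Ch25h. The 6 astrocyte markers summed to 996 to 5060 CPM in IAKA mice, also highest in mouse 79, and 2830 to 3640 CPM in PBS mice. The sum of 5 endothelial markers separated the groups as Ch25h did, at 292 to 464 CPM in IAKA and 203 to 273 CPM in PBS mice. Of all genes tested, 2.62% had every IAKA library above every PBS library. In input libraries at 24 h the endothelial sum did not separate them (427 to 1200 CPM in IAKA mice, 882 CPM in the PBS mouse). In the m6A libraries 5 choroid plexus markers summed to 28.3 to 967 CPM in IAKA and 44.8 to 596 CPM in PBS mice. The sum of 6 leukocyte markers was 18.8 to 83.8 CPM in IAKA mice, highest in mouse 8, which had the lowest Ch25h of its group, and 13 to 30.3 CPM in PBS mice. None of these markers was at 0 throughout a 24 h group, none passed the test, and their part in the Ch25h difference was not tested. Across the 19 m6A libraries, the 3 genes of 17439 whose log2 CPM followed Ch25h most closely were Cd44 (Pearson r = 0.917), Itga5 (0.903) and Arhgdib (0.901), of which the first 2 encode a cell adhesion receptor and an integrin subunit. These correlations share libraries and depth and are descriptions.

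**Figure D2:**
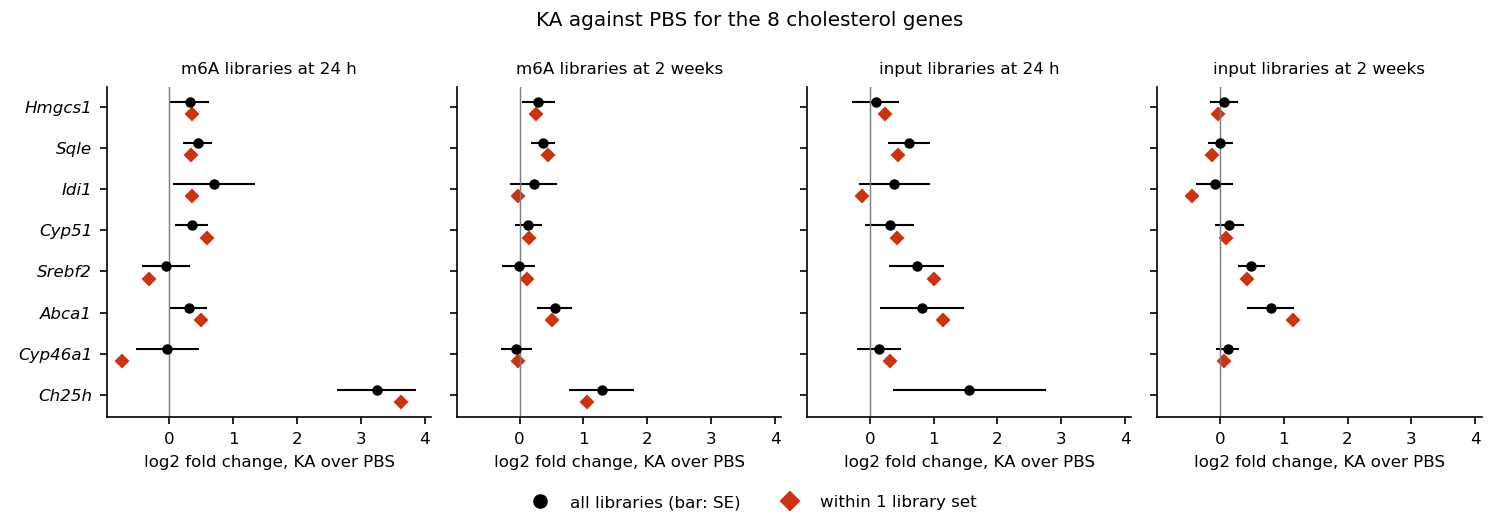
Log2 fold change of IAKA (KA) over PBS for the 8 genes in each of the 4 comparisons, with black circles for all libraries (bar: SE) and red diamonds for the fit within 1 library set. Ch25h in m6A libraries at 24 h (3.25, and 3.62 within set 4) lies farthest from 0. Ch25h has no diamond at 24 h and no symbol at 2 weeks in input libraries, where it failed the filter on low counts.

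None of the 4 synthesis enzymes passed the test. Sqle encodes squalene epoxidase, which adds an oxygen atom to squalene before the sterol rings close. Its m6A libraries at 24 h gave 42.43 (mouse 67), 37.51 (mouse 98), 39.51 (mouse 97), 37.2 (mouse 79) and 37.84 CPM (mouse 8) for IAKA mice and 30.65, 25.68 and 29.6 CPM for PBS mice. The groups did not overlap and the spread within IAKA mice was small (SD 2.168 around a mean of 38.9 CPM). The log2 fold change was 0.44 (SE 0.23, adjusted p = 0.983 in edgeR), and within library set 4 it was 0.33. At 2 weeks Sqle in m6A libraries was 26.02 to 45.32 CPM in IAKA mice (median 31.38) and 27.61, 26.42, 31.11, 30.53 and 18.09 CPM in PBS mice, with overlap. That fold change was 0.36 on the log2 scale (SE 0.19, adjusted p = 0.875 in edgeR), and 0.44 within library set 5. None of the 8 genes passed in that comparison in edgeR, against 0% of all genes, or in DESeq2, against 15 of 16157 genes. Only Ch25h had an unadjusted p under 0.05 in edgeR, against 5.01% of all genes. No gene of the 8 had every IAKA library above every PBS library, against 0.26% of all genes.

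In input libraries at 24 h Sqle was 31.65, 31.48 and 36.11 CPM in IAKA mice and 27.02 CPM in the PBS mouse. The log2 fold change was 0.61 with TMM (SE 0.328, adjusted p = 0.607 in edgeR) and 0.30 with library size. The 2-week difference was 0.01 (SE 0.197). None of the 8 genes passed at 24 h (0% of all genes, with 0 of the 8 at an unadjusted p under 0.05 against 9.23% of all genes, and 0 in DESeq2). All 8 fold changes were above 0 with TMM, with a median of 0.50 where the median of all 17644 genes was 0.27. Without IAKA mouse 8 the median of all genes tested was 0.03. With library size Hmgcs1 was at -0.19 and Cyp46a1 at -0.14. All IAKA libraries lay above the 1 PBS library for Sqle and Ch25h, against 10.9% of all genes. None of the 7 genes tested passed at 2 weeks (0% of all genes), where 1 of the 7, Srebf2, was under an unadjusted p of 0.05 in edgeR, against 14.1% of all genes. DESeq2 and limma voom called 0 of the 7, against 116 and 342 of 13752 genes. Both put Srebf2 and Abca1 under an unadjusted p of 0.05, against 14% and 24% of all genes. None of the 7 had all IAKA libraries above all PBS libraries, against 2.64% of all genes.

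Hmgcs1 and Idi1, whose enzymes build the isoprenoid units of the pathway, overlapped between treatments and differed between library sets. Hmgcs1 in m6A libraries at 24 h was 183.9, 134.3, 121.6, 94.5 and 78.87 CPM in IAKA mice 67, 98, 97, 79 and 8, and 87.37, 68.03 and 132.5 CPM in PBS mice 71, 73 and 1. The groups overlapped, and their log2 difference was 0.31 (SE 0.304, adjusted p = 0.983 in edgeR). Idi1 was 26.77, 23.59, 22.65 and 22.38 CPM in IAKA mice 67, 98, 97 and 79, but 81.76 CPM in mouse 8, and 19.54, 13.02 and 40.52 CPM in PBS mice 71, 73 and 1. Its log2 fold change of 0.69 (SE 0.639) became -0.13 without mouse 8. Cyp51, whose enzyme removes a methyl group from lanosterol, overlapped between the groups too (20.77 to 47.48 CPM in IAKA and 20.75 to 31.89 CPM in PBS mice at 24 h, log2 fold change 0.35, SE 0.254).

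The 2-week fold changes of Hmgcs1, Idi1 and Cyp51 in m6A libraries were 0.29, 0.22 and 0.14 on the log2 scale (SE 0.254, 0.367 and 0.217), with overlap of the groups in each. One IAKA mouse, mouse 7, had the highest level of all 3 genes, at 241.5 CPM for Hmgcs1, 87.24 CPM for Idi1 and 61.27 CPM for Cyp51. The same mouse was highest in input libraries, with 220.6, 80.67 and 55.23 CPM. Within library set 5 (3 mice a group) the fold changes were 0.25, -0.02 and 0.14. In input libraries the 3 genes differed by 0.09, 0.39 and 0.31 at 24 h on the log2 scale. With 1 library left out, the Idi1 value at 24 h ranged from -0.12 to 0.63. Mouse 8 had the highest Idi1 of these libraries (54.16 CPM, against 32.01 and 25.08 CPM in IAKA mice 67 and 98). At 2 weeks the input differences were 0.07, -0.08 and 0.15, with adjusted p from 0.794 to 0.922 in edgeR.

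**Figure D3:**
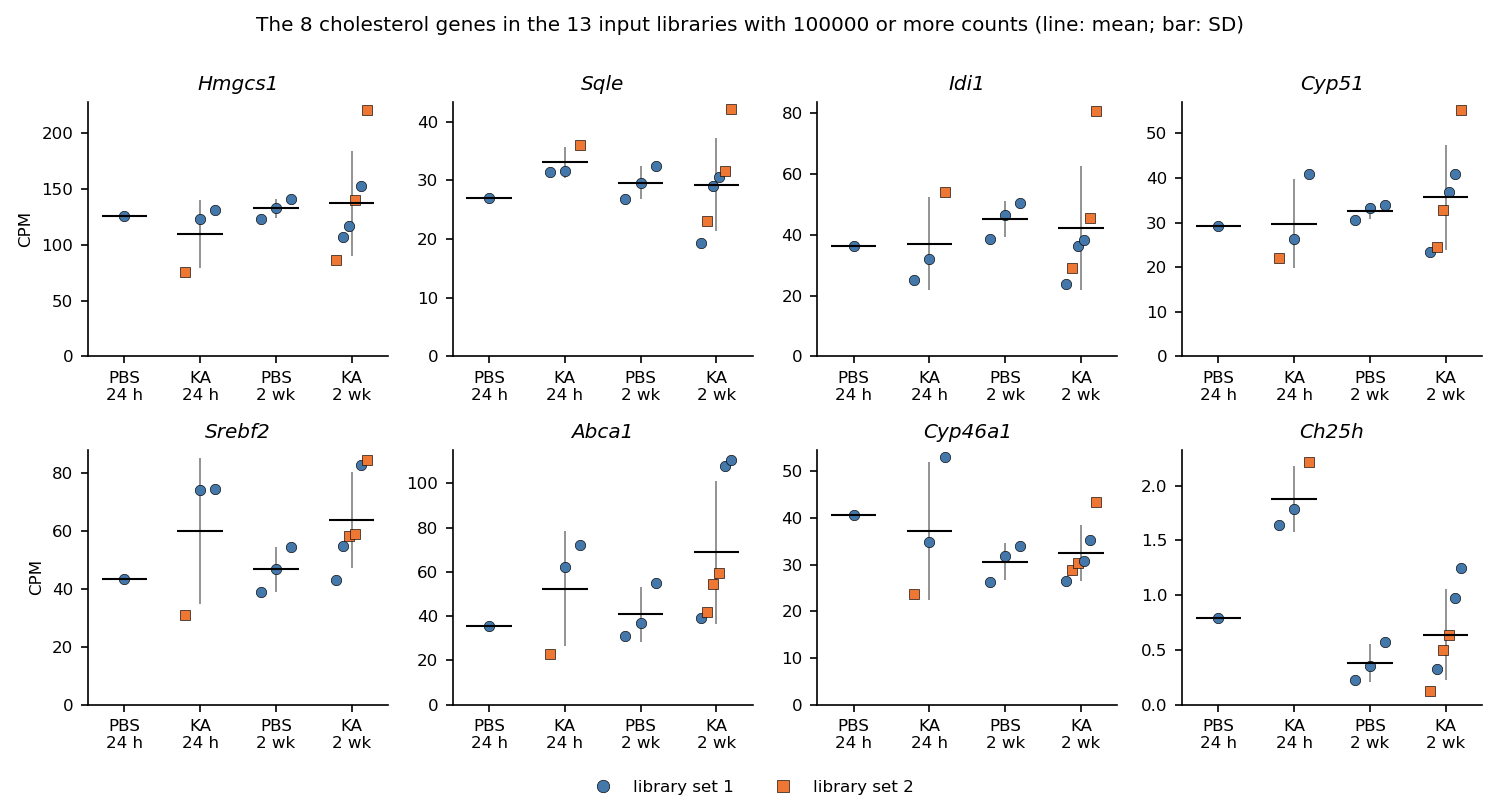
Level of each of the 8 genes in the 13 input libraries with at least 100000 counts, in CPM, with 1 symbol per mouse (KA stands for IAKA) shaped by library set, the mean as a line and the SD as a bar. At 24 h there is 1 PBS library. At 2 weeks Abca1 is highest in IAKA mice 42 and 21 (110.5 and 108 CPM), and the groups overlap for all 8 genes.

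The library sets were compared in PBS mice alone. Set 4 and set 5 hold different mice, so that a set cannot be told apart from its mice. In their m6A libraries, with time as a covariate, set 5 (mice 1, 2, 3 and 4) differed from set 4 (mice 50, 71, 73 and 78) in 37.1% of all genes (5875 of 15840). Hmgcs1 was 132 to 163 CPM in set 5 and 68 to 88.2 CPM in set 4 (log2 difference 0.78, adjusted p = 0.00129 in edgeR). Idi1 was 40.5 to 76.9 CPM against 13 to 20.2 CPM (log2 difference 1.44, adjusted p = 0.00108 in edgeR). Srebf2 went the other way, at 38.1 to 54.3 CPM in set 5 and 60.9 to 75.5 CPM in set 4 (log2 difference -0.63, adjusted p = 0.018 in edgeR). The other 4 genes tested did not pass (Cyp51 0.43, Cyp46a1 -0.29, Abca1 -0.08 and Sqle -0.00), and Ch25h failed the filter.

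These differences ran with base composition. The share of G and C in the canonical transcript was 39.0% for Idi1, 42.0% for Hmgcs1 and 44.6% for Cyp51, and 57.9% for Srebf2 and 59.9% for Cyp46a1. Over the 13804 genes with a value (87.1% of those tested), the median log2 difference of set 5 over set 4 was 0.52 in the quartile of genes lowest in G and C, then 0.14 and -0.18, and -0.66 in the highest quartile. The sets differed in cell markers too. The 6 excitatory neuron markers summed to 3646 to 4247 CPM in set 4 and 1385 to 1821 CPM in set 5. Whether base composition, cell content or the mice of a set bring about the set difference was not tested. Within the 19 m6A libraries, log2 CPM of Hmgcs1 correlated with that of Cyp51 (Pearson r = 0.817) and Idi1 (0.67), Srebf2 with Cyp46a1 (0.852), and Idi1 and Srebf2 in opposite directions (-0.724). The libraries of these correlations share the sets, and the values are descriptions. The 3 genes most like Hmgcs1 were Stard4 (0.906), which encodes a sterol carrier and is a known SREBP2 target, Arcn1 (0.897), a coat protein gene, and Ide (0.892), which encodes insulin-degrading enzyme.

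**Figure D4:**
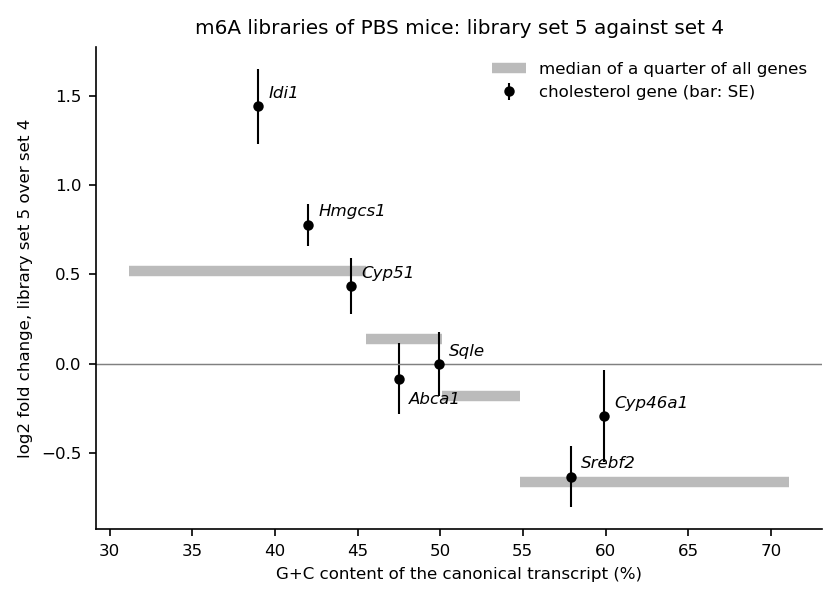
Log2 fold change of library set 5 over set 4 in the m6A libraries of PBS mice (vertical axis) against the G+C content of the canonical transcript in percent (horizontal axis) for the 7 genes tested (points, bar: SE), with grey bars for the median of each quartile of all genes. Idi1 (1.44) and Hmgcs1 (0.78) lie at the low end of G+C content and above 0, Srebf2 (-0.63) at the high end and below 0.

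Srebf2 itself overlapped between treatments in m6A libraries. At 24 h it was 88.4, 68.97, 66.31, 53.42 and 20.11 CPM in IAKA mice 67, 98, 97, 79 and 8, and 60.91, 75.54 and 38.09 CPM in PBS mice (log2 fold change -0.06, SE 0.375). At 2 weeks the log2 fold change was -0.01 (SE 0.262). In input libraries the fold change of Srebf2 was above 0 at both times without passing the test, and the values overlapped. At 24 h IAKA mice 67, 98 and 8 had 74.39, 74.74 and 30.86 CPM and the PBS mouse 43.33 CPM. That log2 fold change was 0.73 (SE 0.431), 0.46 with library size and 0.57 to 1.00 with 1 library left out. At 2 weeks the IAKA mice had 43.17 to 84.59 CPM (median 58.65) and the PBS mice 54.41, 38.78 and 47.02 CPM, with overlap. That log2 fold change was 0.49 (SE 0.212, adjusted p = 0.332 in edgeR), and 0.42 within library set 1. In the same comparison all 6 excitatory neuron, 6 astrocyte and 8 microglia markers were above 0 (medians 0.68, 0.65 and 0.89). Their part in the Srebf2 difference was not tested.

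Abca1, which moves cholesterol to lipid-poor apolipoproteins outside the cell, had a fold change above 0 in all 4 comparisons and passed in none. At 2 weeks in input libraries the IAKA mice had 110.5 (mouse 42), 108 (mouse 21), 38.92, 41.68, 54.46 and 59.37 CPM, and the PBS mice 54.86, 30.79 and 36.71 CPM. Mice 42 and 21 were well above all others, and the other 4 IAKA mice lay within or just above the PBS range. The log2 fold change was 0.80 (SE 0.364, adjusted p = 0.356 in edgeR), and 1.14 within library set 1 (adjusted p = 0.208). Without mouse 42 it was 0.60. In m6A libraries at 2 weeks the same mice were highest (117.6 and 97.61 CPM), the other IAKA mice had 40.7 to 59.04 CPM, and the PBS mice 35.05 to 62.92 CPM (log2 fold change 0.55, SE 0.274, adjusted p = 0.875 in edgeR, and 0.50 within library set 5). At 24 h the log2 fold change was 0.30 (SE 0.293) in m6A and 0.81 (SE 0.656, and 0.55 with library size) in input libraries. Mouse 8 had the lowest input value (22.9 CPM), and the input fold change was 0.53 to 1.14 with 1 library left out.

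Mice 42 and 21 also had the highest sums of astrocyte and microglia markers among the input libraries at 2 weeks. The 6 astrocyte markers summed to 7260 and 6651 CPM in them, against 3116 to 4394 CPM in the other IAKA mice and 2020 to 4230 CPM in PBS mice. The 8 microglia markers summed to 420.2 and 342.2 CPM, against 173.5 to 254.6 CPM and 115 to 181 CPM. The 6 excitatory neuron markers summed to 2223 and 2640 CPM in mice 42 and 21. The other IAKA mice had 1200 to 2309 CPM and the PBS mice 965 to 1820 CPM. The 6 oligodendrocyte markers summed to 1826 CPM in mouse 42, the lowest of these libraries, and to 3163 CPM in mouse 21, the highest. None of these markers was at 0 throughout a group, none passed the test, and their part in the Abca1 difference was not tested. The 3 genes whose log2 CPM followed Abca1 most closely across the 19 m6A libraries were Parp4 (Pearson r = 0.854), 2810459M11Rik (0.83) and Abhd2 (0.817).

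Cyp46a1, the neuronal cholesterol 24-hydroxylase, overlapped between treatments at both times. In m6A libraries at 24 h the IAKA mice spread from 11.05 (mouse 8) to 76.28 CPM (mouse 67) around the PBS range of 26.35 to 54.72 CPM (log2 fold change -0.03, SE 0.499). At 2 weeks the difference was -0.05 (SE 0.247), and in input libraries 0.14 (SE 0.342) at 24 h and 0.12 (SE 0.176) at 2 weeks. Within library set 4 at 24 h the m6A difference was -0.75 (adjusted p = 0.247 in edgeR), from 4 libraries.

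The IAKA effect in m6A libraries was set against that in input libraries in 1 fit at each time. At 24 h the difference of the effects ran from -0.79 for Srebf2 (SE 0.711) to 1.82 for Ch25h, and at 2 weeks from -0.51 for Srebf2 (SE 0.372) to 0.59 for Ch25h (SE 1.001). None of the 8 genes passed at 24 h (0% of all genes in edgeR), nor at 2 weeks (0% of all genes in edgeR), and none had an unadjusted p under 0.05 in edgeR, against 0.658% of all genes at 24 h and 4.06% at 2 weeks, or passed in DESeq2 at either time. For Ch25h the standard error of more than 1 log2 unit leaves the size of the difference unsettled at both times.

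Other genes of the pathway were read from 4 lists: 16 synthesis enzymes, 15 genes of SREBP2 control and cholesterol uptake, 11 of efflux and lipoprotein transport, and 7 of oxysterol and ester metabolism. No gene of these lists passed in any of the 4 comparisons of IAKA with PBS. These were edgeR fits, in which 0.00607% of all genes passed in m6A libraries at 24 h and 0% in either assay at 2 weeks. The lists were not read in the other tools. The synthesis list in m6A libraries at 24 h had 13 of 16 genes above 0 with a median log2 fold change of 0.26, where the median of all genes tested was 0.08. In the same libraries 10 of 14 genes of control and uptake were above 0 (median 0.18), 5 of 11 of efflux (median -0.03), and 5 of 6 of oxysterol and ester metabolism (median 0.46).

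The medians in m6A libraries at 2 weeks were 0.09, 0.10, 0.04 and 0.24 for the same lists. No list gene was under an unadjusted p of 0.05 in edgeR there, against 5.01% of all genes. In input libraries at 24 h the medians were 0.33, 0.43, 0.53 and 0.24, where all genes had a median of 0.27. In input libraries at 2 weeks 9 of 10 efflux genes tested were above 0 (median 0.33, all genes 0.02), with 3 under an unadjusted p of 0.05, where 14.1% of all genes were: Apoe (0.98, SE 0.306), the main apolipoprotein of brain lipoproteins, Clu (1.10, SE 0.385), another apolipoprotein, and Scarb1 (0.63, SE 0.171), a lipoprotein receptor, with adjusted p from 0.251 to 0.286 in edgeR. In the same comparison all 6 astrocyte markers (median 0.65), all 8 microglia markers (0.89) and all 6 excitatory neuron markers (0.68) were above 0 and none passed, and their part in the efflux list was not tested. Srebf1, the paralogue of Srebf2 that acts on fatty acid synthesis, was at 1.16 (SE 0.479, adjusted p = 0.327 in edgeR), and synthesis genes had a median of 0.06 and those of oxysterol and ester metabolism -0.11. Apoe, Clu, Scarb1 and Srebf1 are named after their values were seen.

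**Figure D5:**
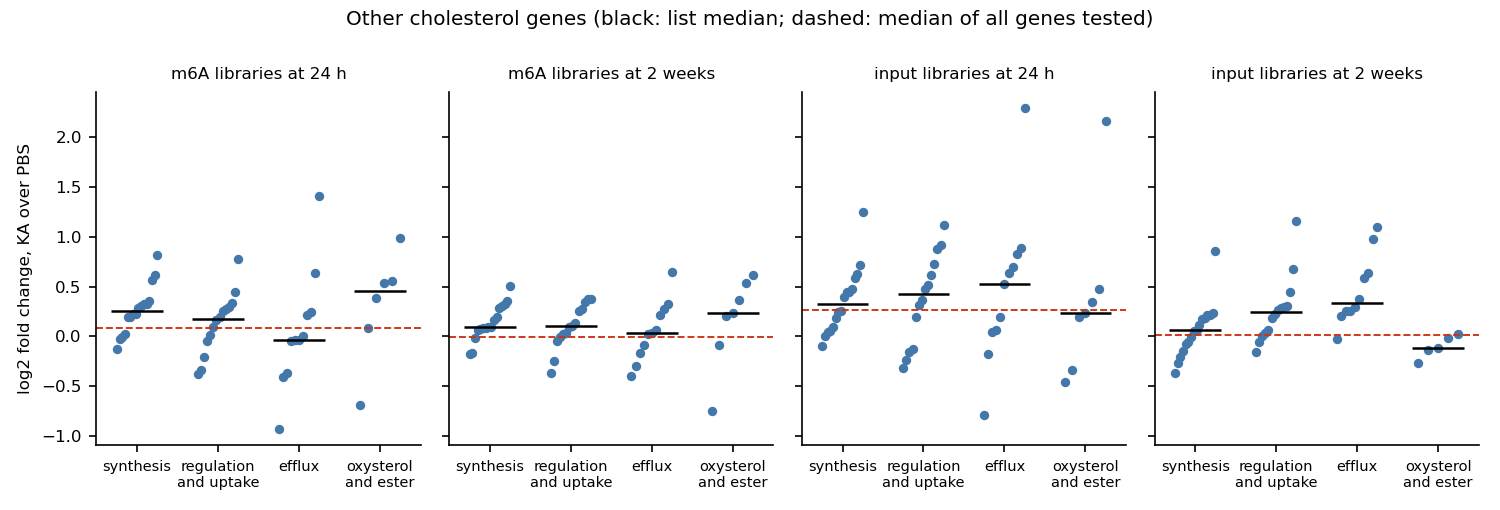
Log2 fold change of IAKA (KA) over PBS for other cholesterol genes in 4 lists (1 point per gene) in each comparison, with the list median as a black line and the median of all genes tested as a dashed line. The efflux list in input libraries at 2 weeks has 9 of 10 genes above 0, and the oxysterol and ester list 1 of 5.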

How the data were processed

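The deposited values are raw counts of reads, not normalized by the authors, with 1 column for each of a library's 4 lanes and 32544 gene symbols in each of 15 files. Per the labels, libraries were made with a stranded total RNA kit (SMARTer), and the submitters' processing notes name the genome build mm10. Which aligner, annotation and counting program were used, and whether counting used strand, is not given in the sources used here. Reads of overlapping genes or near-identical copies may have been split between them. Summing lanes turned 140 columns into 35 libraries, and 8 further columns matched no labelled library and stayed out. For 8 libraries the columns name the assay. For the other 27 the assay was read from the column prefix (3, 4 or 5 for m6A), which is an inference from how the named libraries of the same mice are written. Mouse, treatment and time came from the labels.

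Values are CPM of the library total. Input libraries under 100000 counts (3 of 16, all at 24 h) were left out. Genes were filtered by group with filterByExpr, scaled by TMM and tested with the robust quasi-likelihood fit of edgeR 4.0.16 (R 4.3.3), with Benjamini-Hochberg adjustment over all genes tested and a threshold of 0.05, and with only the groups compared in each fit, except that the 24 h input comparison, left with 1 PBS library, took its spread from all 13 input libraries and the comparison of assays at 24 h from all 32 libraries. The SE is that of the log2 fold change. The p-values measure the spread between mice. No library used had a count of 0 for the 8 genes, and intervals of counting were not computed. Values of Ch25h that rest on few counts, as few as 1 in some libraries, carry counting error besides. The statistics were tested on simulated data. Alternatives were DESeq2 1.42.0, limma voom 3.58.1 with quality weights, no filter, library size in place of TMM, other samples in the fit, library set or mouse as a block, and leaving out single libraries. The restriction to 1 library set and the comparison of sets in PBS mice were added after the data were seen.

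The mouse number pairs the input and m6A libraries, since the labels give both for 1 animal. In the 12 mice where this could be checked, the deviations of the 2 libraries from their group means correlated by -0.125 to 0.879 (median 0.453). Named genes are the 8 genes, up to 3 genes of each pathway list past the threshold in each comparison (there were none), and the 3 genes most correlated with Hmgcs1, Abca1 and Ch25h over the m6A libraries on log2 CPM with a prior count of 2. Tm4sf1, Apoe, Clu, Scarb1 and Srebf1 fall outside this rule and were named after their values were seen. The 8 genes, the pathway lists and the marker lists were chosen with earlier results of these data known. Promoters are from RefSeq and transcripts from GENCODE. Python 3.11.15 with numpy 2.4.6 and pandas 2.3.3 made the tables, and matplotlib 3.10.9 the plots. Some genes of the pathway lists are not reported here by name.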

Additional observations from a re-analysis of the deposited data

Results flagged for a closer look

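Within groups of 4 to 10 mice, 5 of 32 combinations of gene and group had 1 mouse farther from the rest than Dixon's 95% limit for the highest or lowest value, which chance alone passes in about 1 group of 20. In m6A libraries at 24 h, IAKA mouse 79 had 16.35 CPM of Ch25h, with the next highest mouse at 6.062 CPM. In the same group, IAKA mouse 8, which also had the lowest astrocyte marker sum of the m6A libraries, had 81.76 CPM of Idi1 against 26.77 CPM in the next. In m6A libraries at 2 weeks, IAKA mouse 7 stood out for 3 synthesis genes, with 241.5 CPM of Hmgcs1 (next 161.4), 87.24 CPM of Idi1 (next 51.34) and 61.27 CPM of Cyp51 (next 40.01).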

How the results depend on the processing

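Of 482 log2 fold changes of the 8 genes in other settings, 429 kept their sign and their side of the threshold, 6 passed it and 47 changed sign. All 6 are Ch25h in m6A libraries at 24 h, where the number of the 8 genes called rose from 0 to 1 with no filter (3.20, adjusted p = 0.0247), with DESeq2, with limma voom, with all 4 m6A groups in 1 fit (3.25, adjusted p = 0.0463), within library set 4 and without IAKA mouse 8; with 1 library left out the number called was 0 to 1. Of 138 such counts the other 132 stayed at 0. The causes were not tested. Library size in place of TMM moved the median of all genes from 0.27 to -0.04 in input libraries at 24 h, from 0.00 to 0.26 for the IAKA effect in m6A against input libraries at 24 h, and from 0.07 to 0.31 for m6A against input in PBS mice. The values that changed sign with it were Srebf2 0.02 and Cyp46a1 0.06 in m6A libraries at 24 h, Hmgcs1 -0.19 and Cyp46a1 -0.14 in input libraries at 24 h, and Sqle -0.01 in input libraries at 2 weeks. With voom they were Idi1 -0.09 in input libraries at 24 h and Hmgcs1 -0.09 and Sqle -0.06 at 2 weeks, and with all 4 input groups in 1 fit Sqle -0.01 at 2 weeks. With library set as a block they were Idi1 -0.04 and Srebf2 0.10 in m6A and Hmgcs1 -0.03 and Sqle -0.13 in input libraries at 2 weeks. Within 1 library set they were Idi1 -0.02 and Srebf2 0.12 in m6A libraries and Hmgcs1 -0.03 and Sqle -0.13 in input libraries at 2 weeks, and Idi1 -0.12 in input libraries at 24 h. With 1 library left out, the values that changed sign ranged in m6A libraries at 24 h from -0.13 to 1.28 for Idi1, -0.29 to 0.23 for Srebf2, -0.36 to 0.36 for Cyp46a1, in m6A libraries at 2 weeks from -0.01 to 0.54 for Idi1, -0.01 to 0.27 for Cyp51, -0.26 to 0.10 for Srebf2, -0.22 to 0.03 for Cyp46a1, in input libraries at 24 h from -0.02 to 0.24 for Hmgcs1, -0.12 to 0.63 for Idi1, -0.15 to 0.33 for Cyp46a1, and in input libraries at 2 weeks from -0.09 to 0.16 for Hmgcs1, -0.10 to 0.10 for Sqle, -0.34 to 0.03 for Idi1, -0.00 to 0.24 for Cyp51. The PBS library at 24 h could not be left out of the input fits, since no control would remain, and in those only 24 h libraries were left out. With the mouse as a replicate block (the paired fit), 0 of the 8 genes were called in the 3 comparisons of m6A with input, as without it, and all genes called went from 0 to 1 at 24 h, from 0 to 1 at 2 weeks and from 170 to 57 in PBS mice at 2 weeks. Counts over all genes depended on the tool: at 24 h in m6A libraries edgeR called 1 gene, DESeq2 156 and voom 1120; at 2 weeks in m6A libraries 0, 15 and 2; in input libraries 0, 197 and 1076 at 24 h and 0, 116 and 342 at 2 weeks; and for m6A against input in PBS mice 170, 738 and 1184, and 343 with scaling by library size. Depth limits Ch25h most, which had 6 to 25 counts in the PBS m6A libraries at 24 h.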
